A study of Macaca fascicularis with 4 samples.

Results

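LIN28A, LIN28B, IGF2BP1, IGF2BP3 and HMGA2 encode heterochronic factors, proteins whose level is tied to developmental age, and were followed here in cynomolgus monkey (Macaca fascicularis) embryos. They were chosen by symbol, with earlier results of these data known, and each matched 1 row in all 4 libraries, so the 5 members stand for 5 of 26222 named genes. Because the fall of the group towards the last stage was already in view, levels across the stages are described without a test.

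The 3′ ends of transcripts were counted in single cells captured in droplets, in 4 libraries, 1 per stage. E24 (embryonic day 24) was at Carnegie stage 11. E28 was at stage 13 and E31 at stage 14, and the last, E37, was at stage 18. No embryo is labelled as treated or mutant. The E24 tissue was most of the trunk, with yolk sac, amnion, heart, the parts in front of the heart and the posterior growth zone cut away. At E28 and E31 the tissue was urogenital ridge, including the mesonephros, the coelomic lining and some mesentery. At E37 it was mainly gonadal ridge, with part of the mesonephros, presumed adrenal and mesentery. The E24 label names 2 embryo codes and each other label names 1, and every library was counted as 1 sample. The libraries held 10639, 5028, 6661 and 5293 barcodes with at least 500 genes, medians of 9990, 11391, 9766 and 6674 unique molecular identifiers (UMIs), and totals of 115332663, 62477350, 72233442 and 40219599 UMIs. Pairs of libraries had from 37 to 111 barcode sequences in common, at most 1.67% of a library. With 1 library per stage there is no replicate check, each interval below is a 95% interval for counting error only, and stage cannot be told apart from the tissue taken except between E31 and E28, which had the same dissection.

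LIN28A and LIN28B bind precursors of the let-7 microRNAs and block their processing, and let-7 in turn represses many mRNAs, LIN28B, IGF2BP and HMGA2 mRNAs among them. IGF2BP1 and IGF2BP3 are oncofetal proteins that bind and stabilise mRNAs in cytoplasmic particles. HMGA2 is not an RNA-binding protein but a chromatin protein of embryonic and stem cells, and is a classical let-7 target. In mammals these genes are active in the early embryo and most are silenced in adult tissue. The let-7 RNAs themselves are not measured by this assay.

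Between whole libraries the 5 members did not move together. At E37 LIN28A was 69.1-fold lower than at E24 and LIN28B 3.80-fold lower, IGF2BP1 and IGF2BP3 were 1.89-fold and 1.53-fold lower, and HMGA2 was 1.94-fold higher. A gene counted as lower or higher at 2-fold or more, so 2 of 5 members were lower and 0 of 5 higher. Of the 14783 genes with at least 50 UMIs in the higher library, 10.4% were lower and 15% higher by this measure. Nothing is read from these counts, since the contrast was known when the members were chosen.

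Levels are given as CPM, the UMIs of a gene per 1000000 UMIs of the library or group. LIN28A stood at 194, 48.5, 59.8 and 2.81 CPM, in order of stage from E24 to E37, from 22401, 3033, 4317 and 113 UMIs. It was high at E24, intermediate at E28 and E31 and near the bottom of its range at E37, with no overlap between the intervals of any stages. The E37 to E24 ratio was 0.0145 (0.0119 to 0.0174), a log2 ratio of −6.11. A LIN28A UMI was found in 73.3%, 37.2%, 38.8% and 1.87% of barcodes, and in 29.8%, 8.49%, 10.3% and 0.453% once each barcode was thinned to 2000 UMIs. The last of these shares is 24 barcodes.

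Its paralogue LIN28B stood at 81.1, 53.4, 60.4 and 21.3 CPM in the same order (9354, 3335, 4365 and 858 UMIs). The order of stages was that of LIN28A, E24 above E31, E28 and E37, again without overlap, but the span was smaller. The E37 to E24 ratio was 0.263 (0.245 to 0.282).

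IGF2BP1 stood at 244, 210, 208 and 129 CPM (28121, 13116, 15012 and 5187 UMIs). Its intervals at E28 and E31 overlapped, and E37 was lowest. The E37 to E24 ratio was 0.529 (0.513 to 0.545), a log2 ratio of −0.92, and it passed 2-fold with median-of-ratios scaling, with the mean over barcodes and after thinning (−1.05, −1.02 and −1.07). IGF2BP3 stood at 180, 144, 158 and 117 CPM (20739, 8988, 11395 and 4724 UMIs), with an E37 to E24 ratio of 0.653 (0.633 to 0.674). HMGA2 was counted rarely, with 532, 442, 382 and 360 UMIs, or 4.61, 7.07, 5.29 and 8.95 CPM. Its highest level was at E37, and its E31 and E24 intervals overlapped. The E37 to E24 ratio was 1.94 (1.69 to 2.22).

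**Figure D1:**
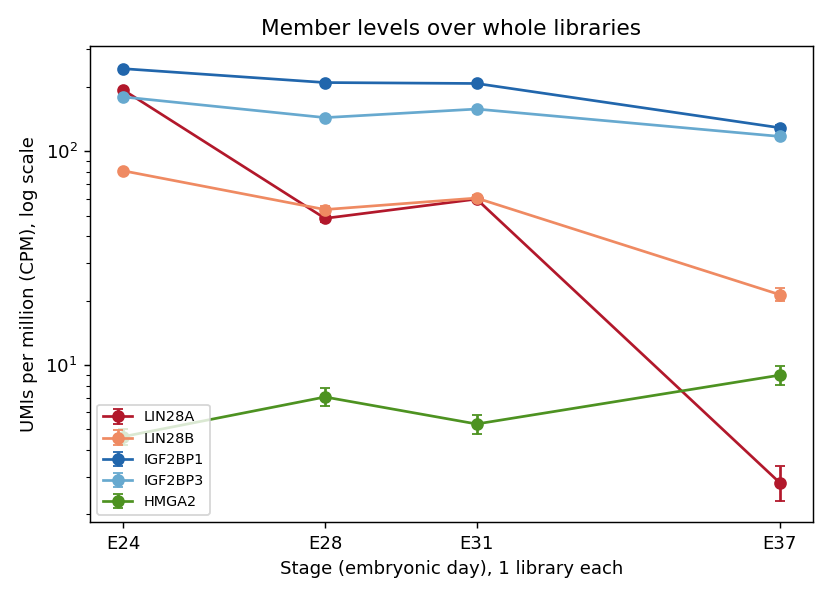
Level of each member over the whole library, in CPM on a log axis, against stage, with 1 library per stage. Bars are 95% Poisson intervals and are mostly smaller than the points. LIN28A drops to 2.81 CPM at E37 while HMGA2 reaches 8.95 CPM.

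The decline was not even across the stages. Between E31 and E28, taken by the same dissection, none of the 5 members passed 2-fold, where 2.66% of 14785 genes were lower and 1.15% higher. LIN28A was 1.23-fold higher at E31 (1.17 to 1.29) and LIN28B 1.13-fold higher (1.08 to 1.18). IGF2BP3 was 1.10-fold higher (1.07 to 1.13), IGF2BP1 had a ratio of 0.990 (0.967 to 1.01) and HMGA2 a ratio of 0.748 (0.650 to 0.859). The differences lay between E28 and E24, and between E37 and E31. LIN28A was lower at E28 than at E24 by between 3.85-fold and 4.16-fold (where 6.23% of 15262 genes were 2-fold lower) and 21.3-fold lower at E37 than at E31 (8.24% of 14583 genes 2-fold lower). LIN28B was 1.52-fold lower at E28 than at E24 and 2.83-fold lower at E37 than at E31.

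The closest relatives of the members were IGF2BP2 and HMGA1. IGF2BP2, the third IGF2BP gene, stood at 125, 162, 147 and 135 CPM from E24 to E37 by stage, and its E37 to E24 ratio was 1.08 (1.05 to 1.12). HMGA1, the paralogue of HMGA2, stood at 1094, 842, 908 and 274 CPM and was 3.99-fold lower at E37 than at E24 (3.92 to 4.07). The log2 ratio of IGF2BP2, 0.11, is smaller than the shift of −0.13 that median-of-ratios scaling gives all genes, so no direction is given for it.

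To see whether the fall was shared, UMIs were summed over barcodes with at least 1 UMI of a marker: PECAM1, an endothelial adhesion molecule, SOX10, a neural crest factor, WT1, a factor of the coelomic epithelium, kidney and gonad, ACTA2, smooth muscle actin, and PAX8, a factor of nephric epithelium. A barcode could be in several groups, and a group is defined by its marker UMI and is not a cell type. Other endothelial markers summed to 30.6-fold or more above the remaining barcodes in the PECAM1 group of every library, and other neural crest markers to 16.8-fold or more in the SOX10 group. Companions of ACTA2 were 4.07-fold to 12.8-fold higher in its group and those of PAX8 2.41-fold to 7.25-fold. The share of ACTA2 barcodes with a companion was 48.3%, 50.9%, 33.1% and 84.4% by stage, and 42.7%, 49.8%, 42.5% and 44.0% in the other barcodes. Companions of WT1 did not sum to a higher level in its group at E24, E28 and E31 (0.901, 0.672 and 0.840) and summed to 3.87-fold higher at E37. Taken singly, 3, 2, 1 and 6 of the 6 were more than 2-fold higher, by stage. The share of WT1 barcodes with a companion was 81.0%, 56.5%, 51.6% and 42.4%, and 64.0%, 53.8%, 43.3% and 19.2% in the other barcodes. At E37, 77.7% of PAX8, 55.1% of WT1, 57.0% of SOX10, 52.5% of ACTA2 and 30% of PECAM1 barcodes had just 1 UMI of the marker.

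LIN28A was lower at E37 than at E24 by 2-fold or more in 4 of 4 groups that could be compared, and so was LIN28B. The shares of all genes lower by 2-fold were 6.83% in the PECAM1 group, 5.38% in the WT1 group, 16.1% in the ACTA2 group and 8.38% in the PAX8 group. IGF2BP1 and IGF2BP3 were lower by 2-fold in 0 of 4, with ratios below 1 in each, and IGF2BP1 passed 2-fold in 3 of the 4 once barcodes were thinned. SOX10 was found in 41 barcodes at E24, under the minimum of 50, so that group was compared from E28 onwards.

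In PECAM1 barcodes LIN28A stood at 126, 15, 22.9 and 0 CPM from E24 to E37 by stage, with 528, 66, 118 and 0 UMIs. At E37 no LIN28A UMI was seen among 2340900, so the level was at least 98.3-fold lower than at E24, taking 3 counts over the group as the limit. It was already 8.40-fold lower at E28 than at E24 (6.49 to 11.02), where 2.93% of genes in the group were 2-fold lower. The PECAM1 value was the lowest of the 5 groups at all 4 stages, though at E37 the other groups held at most 51 UMIs each. In WT1 barcodes LIN28A stood at 199, 51.8, 65.5 and 3.80 CPM, and the E37 level was 52.3-fold lower than at E24 (39.5 to 70.6). In ACTA2 barcodes it stood at 243, 55.0, 64.6 and 3.00 CPM (80.9-fold lower, on 4 UMIs at E37), and in PAX8 barcodes at 194, 45.6, 58.3 and 3.71 CPM (52.4-fold lower, also on 4 UMIs).

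SOX10 barcodes kept more LIN28A at the middle stages. The values were 196 CPM in the 41 barcodes at E24, then 124, 110 and 3.47 CPM at E28, E31 and E37. At E28 this was the highest of the 5 groups, against 15 CPM in PECAM1 barcodes and 45.6 to 55.0 CPM in the other groups, and the same was true at E31. At E37 the level was 31.7-fold lower than at E31 (15.6 to 74.9), on 8 UMIs, where 1.06% of genes in the group were lower by 2-fold.

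LIN28B differed less among groups. At E24 it ran from 73.1 CPM in ACTA2 barcodes to 99.0 CPM in PAX8 barcodes. At E37 it was 34.6 CPM in PECAM1 barcodes, 39.5 in SOX10, 27.8 in PAX8, 18.9 in WT1 and 9.77 in ACTA2 barcodes. The E37 level was 2.26-fold lower than at E24 in PECAM1 barcodes (1.77 to 2.92), 3.56-fold in PAX8, 4.73-fold in WT1 and 7.49-fold in ACTA2 barcodes (4.35 to 14.1). The PECAM1 group, the one with no LIN28A UMI at E37, had the second highest LIN28B level there, with an interval that overlapped those of SOX10 and PAX8 barcodes.

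IGF2BP1 stood at 238, 262, 206 and 194 CPM in SOX10 barcodes at E24, E28, E31 and E37, highest at E28 and lowest at E37. Its E37 to E31 ratio there was 0.939 (0.803 to 1.10). In the other 4 groups the E37 level lay between 133 and 171 CPM, against 199 to 250 CPM at E24, with ratios from 0.539 in WT1 to 0.719 in PAX8 barcodes. Barcodes with none of the 5 markers had 117 CPM at E37 and 247 CPM at E24, a ratio of 0.474 (0.454 to 0.494), which did pass 2-fold, as did 12.8% of genes there. IGF2BP3 was even at E37, from 111 CPM in PECAM1 to 122 CPM in ACTA2 barcodes, against 156 CPM in SOX10 to 219 CPM in WT1 barcodes at E24. Its ratios ran from 0.541 in WT1 to 0.693 in ACTA2 barcodes.

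HMGA2 was higher by 2-fold or more at E37 in 1 of 4 groups, WT1, and the other 3 had under 50 UMIs in the higher library, so they could not be called. The shares of genes higher by 2-fold were 4.15% in PECAM1, 8.01% in ACTA2 and 3.24% in PAX8 barcodes. In WT1 barcodes it stood at 4.36, 7.66, 5.65 and 12.1 CPM from E24 to E37 by stage, and the E37 level was 2.77-fold higher than at E24 (1.86 to 4.23, 162 and 30 UMIs), where 13.1% of genes were higher by 2-fold. ACTA2 barcodes had 13.5 CPM at E37 and 4.22 CPM at E24, and PAX8 barcodes 10.2 and 4.09 CPM, on 18 and 43 and on 11 and 27 UMIs. In PECAM1 barcodes the level was 3.42 CPM at E37 and 3.58 CPM at E24, a ratio of 0.955 (0.351 to 2.40), an interval that includes 2-fold in both directions. SOX10 barcodes stood at 6.44, 6.78, 6.52 and 6.51 CPM across the 4 stages, on 4 to 15 UMIs.

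**Figure D2:**
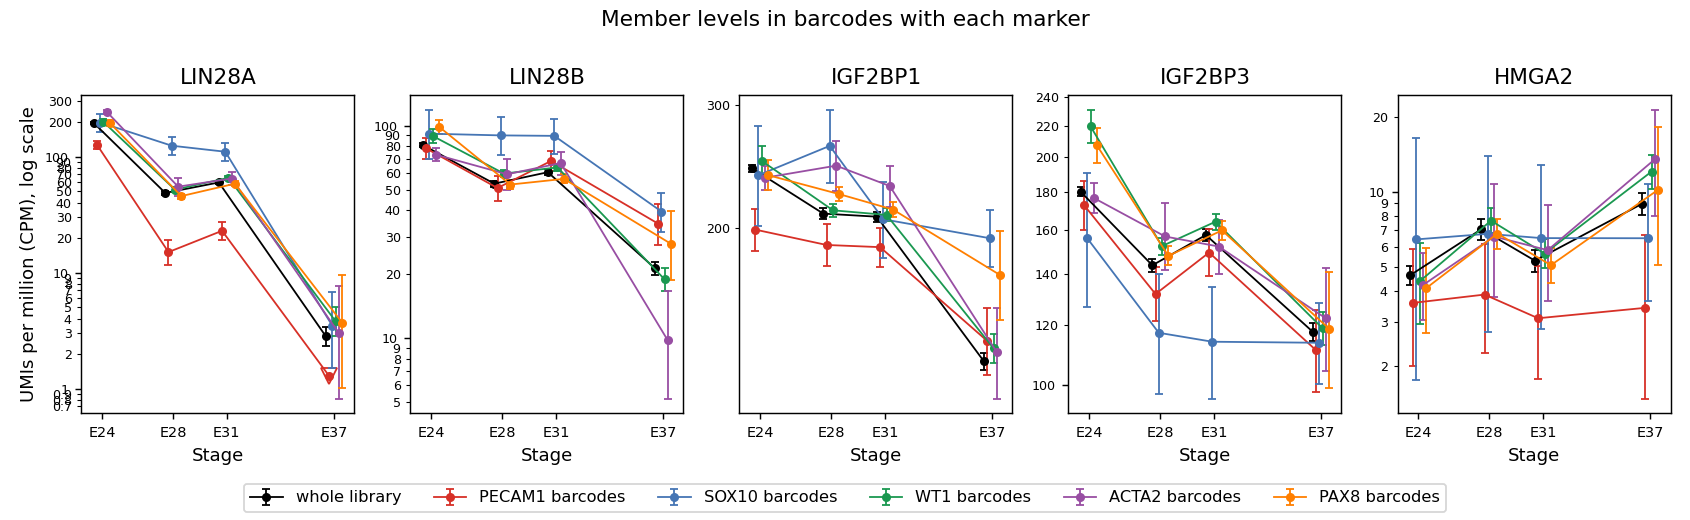
Level of each member, in CPM on a log axis, against stage in the whole library and in barcodes with each marker, with a different axis range per panel. Bars are 95% Poisson intervals and the open triangle marks the limit of 3 counts where no UMI was found. LIN28A reaches its lowest level in every group at E37, with 0 UMIs in PECAM1 barcodes, whereas HMGA2 in WT1 barcodes stands at 12.1 CPM at E37.

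Inside the groups HMGA1 was lower at E37 than at E24 in each of the 4 groups, with ratios of 0.412 in PECAM1, 0.293 in WT1, 0.191 in ACTA2 and 0.371 in PAX8 barcodes. IGF2BP2 had ratios of 1.02 (0.890 to 1.18), 1.03 (0.954 to 1.12), 1.19 (1.02 to 1.39) and 0.892 (0.740 to 1.07) in the same groups, on both sides of 1.

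**Figure D3:**
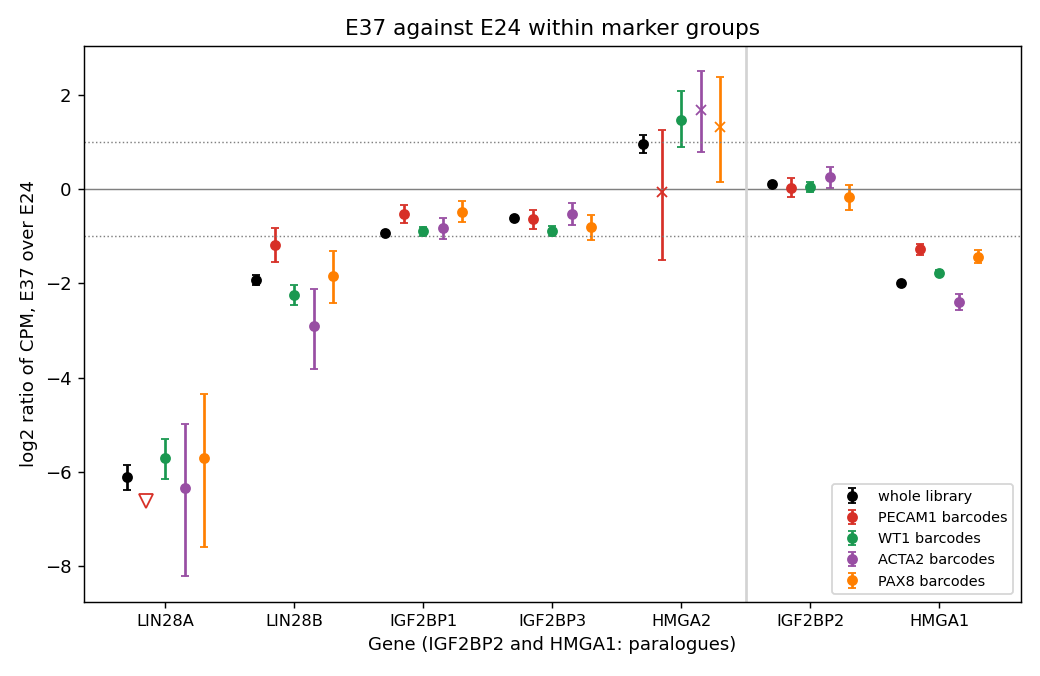
Log2 ratio of CPM, E37 over E24, for the members and for the paralogues IGF2BP2 and HMGA1, in the whole library and in 4 marker groups. Bars are 95% counting intervals, crosses mark values with under 50 UMIs in the higher library, and dotted lines stand at 2-fold. The open triangle marks the ratio at 3 counts where no UMI was found at E37. LIN28A lies below −5 in each group, LIN28B between −1.18 and −2.90, and IGF2BP1 and IGF2BP3 between −1 and 0.

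The tissue mix was also held fixed. When the E37 levels were reweighted to the E24 mix of marker combinations, of which 13 of 16 occurred at both stages and covered 99.9% of E24 UMIs, LIN28A was 79.5-fold lower, LIN28B 4.03-fold, IGF2BP1 1.99-fold and IGF2BP3 1.53-fold lower, and HMGA2 was 1.81-fold higher. This accounts for the 5 markers alone, and 82.0% of E24 barcodes had none of them.

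Levels were then read by cluster, with each library clustered without the members or the pathway genes into 29, 22, 23 and 26 clusters, of which 25, 20, 21 and 24 held at least 50 barcodes. Names ending in "like" rest on marker levels only. For LIN28A, 23 of 24 clusters at E37 lay below the lowest of 25 clusters at E24. For LIN28B this held in 16 clusters, and for IGF2BP1 and IGF2BP3 in 2 each. The lowest E24 cluster was the erythroid-like cluster 27 for LIN28A, LIN28B, IGF2BP1 and IGF2BP3 alike, at 19.7, 27.2, 67.8 and 49.8 CPM. The next lowest E24 clusters stood at 87.6, 31.9, 87.6 and 104 CPM, so these counts depend on cluster 27, whose totals include globin UMIs. All 24 clusters at E37 were below the median E24 cluster for those 4 genes, and 7 of 24 were for HMGA2.

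At E24 LIN28A was highest in 2 neuromesodermal or presomitic-like clusters, the caudal cells from which trunk tissue forms. Cluster 22, led by FGF17, HES7 and T, had 434 CPM (408 to 461), and cluster 14, led by HES3, NKX1-2 and CDX4, had 404 CPM (385 to 424). Cluster 8, which had the same name and TBX6, HES7 and DLL1 among its leading genes, was below these 2. Pooled over all clusters of this name, the level was 338 CPM (327 to 349). The median cluster had 165 CPM, the endothelium-like cluster 89.8 CPM and the erythroid-like cluster 19.7 CPM. LIN28B did not follow this order. The same 2 caudal clusters had 45.0 and 55.8 CPM of LIN28B, below the median cluster at 80.1 CPM, and a nephric-epithelium-like cluster led it with 147 CPM (129 to 167). With cluster 8 pooled in, the caudal clusters had 61.9 CPM of LIN28B (57.3 to 66.7).

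Endothelium-like clusters were low in LIN28A by E28. They stood at 89.8, 6.06, 7.74 and 0 CPM from E24 to E37 by stage (313, 20, 30 and 0 UMIs), 14.8-fold lower at E28 than at E24 (9.43 to 24.6). LIN28B in the same clusters stood at 85.2, 55.4, 68.3 and 42.5 CPM, and at E37 this was the highest level of any cluster, next to a neural crest or glia-like cluster at 40.5 CPM. IGF2BP1 stood there at 204, 193, 186 and 136 CPM. Neural crest or glia-like clusters kept more at E28 and E31: LIN28A stood at 203, 105, 107 and 3.48 CPM, LIN28B at 89.3, 75.6, 93.7 and 35.7 CPM, and IGF2BP1 at 236, 241, 238 and 198 CPM. For IGF2BP1 there the E37 to E24 ratio was 0.837 (0.739 to 0.949) and the E37 to E31 ratio 0.831 (0.738 to 0.935). At E28 LIN28A was 1.94-fold lower than at E24 in the neural crest clusters, against 14.8-fold in the endothelial ones, and the 95% intervals (1.62 to 2.33 and 9.43 to 24.6) did not overlap. The neural crest or glia-like clusters differ in their leading genes, with S100B and FOXD3 among them at E24 and the neuronal genes TUBB3 and NEFM at E28 and E31. At E37 the value pools clusters 1 and 17. These clusters overlap the marker groups and are not independent of them.

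Blood-like clusters differed among themselves. Erythroid-like clusters held IGF2BP1 at 67.8, 37.3, 30.9 and 12.3 CPM and IGF2BP3 at 49.8, 17.6, 17.0 and 14.2 CPM, with 48 barcodes each at E28 and E31. HBZ and HBE1 were among their leading genes, and the UMI totals behind these levels include globin UMIs. Cluster levels without globin genes were not computed. The macrophage-like cluster of E37, led by C1QA, C1QB and C1QC, had 0 LIN28A UMIs and 132 CPM of IGF2BP3 in 94 barcodes, and the E31 cluster led by the same 3 genes had 16.3 CPM of LIN28A on 11 UMIs and 206 CPM of IGF2BP3 in 52 barcodes. The smooth-muscle-like cluster at E37 had the lowest LIN28B of the 24 clusters there, 3.52 CPM on 3 UMIs, and was led by ACTA2, ACTG2 and TAGLN. The E28 cluster led by the same 3 genes had 61.6 CPM (46.9 to 79.4). Podocyte-like clusters, named for the filtering cells of the kidney, had IGF2BP3 at 59.6 CPM at E37 and 152 CPM at E31, a 2.56-fold lower level (1.81 to 3.72), while IGF2BP1 there stood at 138 and 129 CPM. The E37 cluster also had the tubule genes LHX1, EPCAM and CALB1 among its leading genes, and the part of this mixture was not tested.

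The 113 LIN28A UMIs of E37 were not spread evenly. No UMI was found in 6 of the 24 clusters, among them the endothelium-like, macrophage-like and erythroid-like ones. These held 175, 94 and 111 barcodes, with median depths of 8580, 8313 and 13770 UMIs. Their intervals reached up to 2.06, 4.36 and 2.28 CPM, against 2.81 CPM in the library. The absence in the macrophage-like cluster is therefore within counting error of the library level. The part of free RNA in the E37 counts was not tested. Cluster 21, a coelomic or gonadal-like cluster of 57 barcodes led by GJB2, IRX6 and EMX2, had the highest level at 31.8 CPM (17.8 to 52.5), from 15 UMIs in 13 barcodes, 22.8% of the cluster, at a median depth of 6967 UMIs. Cluster 19, led by OSR2 and PLA2G1B, came next at 9.78 CPM from 13 UMIs. It held 4 barcodes with UMIs of at least 2 of 7 germ cell markers, 3 of which carried 12 of the 13, and without those 4 the cluster had 0.822 CPM. Cluster 21 held 0 such barcodes. Over the whole library 5 germ-marker barcodes had 96.7 CPM of LIN28A and held 10.6% of its UMIs, and the library without them stood at 2.52 CPM (2.05 to 3.06). The only 2 barcodes with 4 or more LIN28A UMIs were germ-marker barcodes. At E24, E28 and E31 the germ-marker barcodes (20, 9 and 10) stood at 168, 104 and 103 CPM. LIN28B in the E37 germ-marker barcodes had 0 UMIs among 124144, too few to set against the library.

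The coelomic or gonadal-like cluster of E31, cluster 14, led by LUM, ALDH1A2 and KRT19, was also the highest for LIN28A in its library, at 125 CPM (114 to 137) against a median cluster of 54.3 CPM. It was the highest at E31 for HMGA2 as well, at 13.8 CPM (10.4 to 17.99) against 4.06 CPM in the median cluster. At E28 the highest HMGA2 level, 17.4 CPM (13.4 to 22.3), was found in cluster 14, which stayed unnamed and was led by ALDH1A2, LUM and BNC1. At E37 HMGA2 was highest in cluster 16, led by HOXD10, CAMK4 and HOXD11, at 21.3 CPM (15.6 to 28.5), and in cluster 2, led by DCN and FREM3, at 18.1 CPM (13.3 to 24.1). The coelomic or gonadal-like clusters 8, 9 and 21 of E37 stood at 9.85, 15.4 and 17.0 CPM, and the endothelium-like cluster at 1.68 CPM on 3 UMIs.

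**Figure D4:**
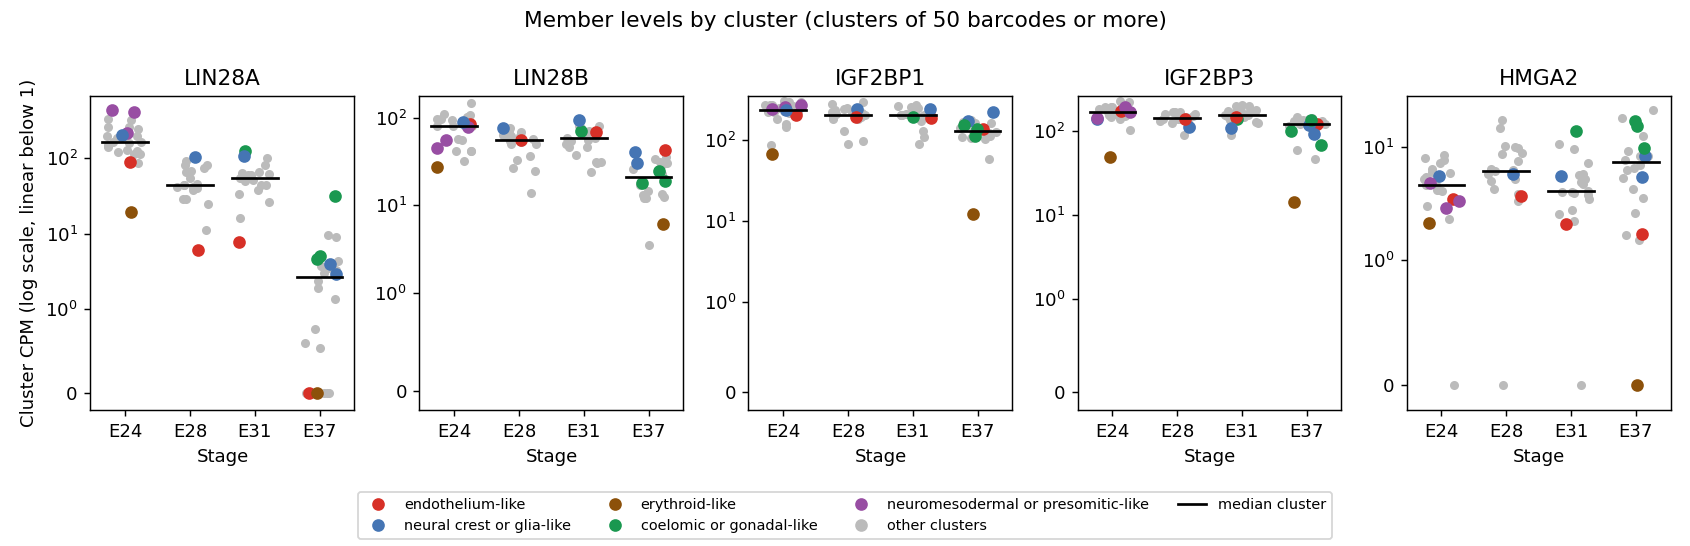
Level of each member per cluster, in CPM on an axis that is logarithmic above 1 and linear below, by stage, for clusters of at least 50 barcodes. Each point is a cluster, coloured where its name is 1 of 5 classes, and the black line is the median cluster. Endothelium-like clusters lie at the bottom for LIN28A from E28 on and at the top for LIN28B at E37, where they reach 42.5 CPM.

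The differences were present with and without cycling barcodes. In barcodes with an MKI67 or TOP2A UMI, genes of dividing cells, LIN28A was 45.4-fold lower at E37 than at E24 (35.7 to 58.8), and in barcodes with neither it was 94.3-fold lower (70.8 to 129). LIN28B was 3.20-fold and 3.69-fold lower in these sets, IGF2BP1 1.55-fold and 2.06-fold lower, IGF2BP3 1.47-fold and 1.38-fold lower, and HMGA2 1.79-fold and 1.92-fold higher. Within E37 LIN28A was 2.35-fold higher in the cycling barcodes than in the others (1.59 to 3.50), against 1.13-fold within E24. The E37 value rests on 66 UMIs in 53 cycling barcodes and 47 UMIs in 46 others. The germ-marker barcodes with 4 and 7 LIN28A UMIs were therefore in the cycling set, and the ratio without them was not computed. The cycling barcodes were the deeper ones, with medians of 8682.5 and 6158 UMIs at E37.

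Within E24, barcodes with LIN28A held the other members about as often as those without it, with overlapping intervals. After thinning to 2000 UMIs, LIN28B was found in 15.7% of E24 barcodes with LIN28A (14.4% to 17.0%) and in 15.1% of those without it. IGF2BP1 was found in 40.4% and 38.4%, and IGF2BP3 in 31.1% and 29.1%. Some pairs without LIN28A had intervals that did not overlap, though the differences were small. IGF2BP1 was found in 42.3% of barcodes with LIN28B and in 38.4% of those without it. IGF2BP3 was found in 31.4% of barcodes with IGF2BP1 and in 28.7% of those without it. Intervals overlapped for IGF2BP3 by LIN28B (31.7% and 29.4%) and for pairs with HMGA2. At E24 26.3% of thinned barcodes held no member and 0.705% held 4, whereas at E37 58.3% held none and 0 held 4.

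Across the 20 profiles of 4 stages by 5 marker groups, the log2 levels of LIN28A had a Pearson r of 0.870 with IGF2BP1, 0.828 with LIN28B and 0.722 with IGF2BP3. HMGA2 had negative r with all 4, from −0.66 with LIN28B to −0.33 with LIN28A. The profiles share libraries and barcodes, so r is given as a description. They include the SOX10 group of E24, with 41 barcodes, which was under the minimum for the ratios. HMGA2 rests on few UMIs in several profiles, such as 8 and 15 in PECAM1 barcodes at E37 and E24. Among 11244 genes the profiles most like LIN28A were those of SNRPF, a splicing protein (r = 0.959), AHCY, which breaks down S-adenosylhomocysteine (0.954), and ITSN1, an endocytic scaffold (0.934). Those most like LIN28B were MRPL52, a mitochondrial ribosomal protein (0.923), HMGA1 (0.918) and API5, an apoptosis inhibitor (0.911). AIF1L, an actin-binding protein (0.931), SET, a histone chaperone (0.928), and TRIM71 (0.925) were most like IGF2BP1. SCD, a fatty acid desaturase (0.918), LIX1 (0.909) and SC5D, an enzyme of cholesterol synthesis (0.898), were most like IGF2BP3. ROR1, a WNT5A receptor (0.912), POSTN, a matrix protein (0.906), and SARAF, a regulator of calcium entry (0.900), were most like HMGA2. POSTN stood at 26.0, 45.0, 25.9 and 153 CPM across the stages and ROR1 at 9.29, 18.2, 16.3 and 42.3 CPM. SNRPF, the gene closest to LIN28A, spanned a smaller range, at 191, 145, 156 and 84.2 CPM.

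Genes reported as let-7 targets, other than the members, were mixed. Of 20 listed and measured, 6 were lower by 2-fold or more at E37 than at E24 and 0 were higher, beside 10.4% and 15% of all genes, and the list median was a log2 ratio of −0.39 against 0.07 for all genes. The lower ones were NR6A1, TRIM71, HMGA1, MYCN, IGDCC3 and ARID3B. NR6A1, a nuclear receptor of the early embryo, stood at 78.0, 22.9, 24.9 and 7.71 CPM from E24 to E37 by stage, in the same order of stages as LIN28A, and was 10.1-fold lower at E37 than at E24. TRIM71, an RNA-binding protein known from the worm as the heterochronic gene lin-41, stood at 35.8, 24.7, 18.9 and 5.82 CPM and was 6.15-fold lower. MYCN, a growth-promoting transcription factor, stood at 89.1, 75.2, 78.7 and 30.9 CPM, and IGDCC3, a cell surface protein, at 298, 257, 242 and 122 CPM. ARID3B was at 1.54, 1.01, 1.05 and 0.646 CPM, on 26 UMIs at E37. HMGA1, MYCN, NR6A1 and TRIM71 were lower by 2-fold or more in each of the 4 marker groups compared. Over whole libraries the other 14 had ratios from 0.511 for ARID3A to 1.64 for PLAG1, with CCND1, a G1 cyclin, at 275 CPM at E37 and 186 CPM at E24. In PAX8 barcodes CCND1 was instead lower by 2-fold or more at E37, as were 8.38% of genes. ARID3A was lower by 2-fold in ACTA2 barcodes, as were 16.1% of genes. Between E31 and E28, 0 of 20 differed by 2-fold, where 2.66% of all genes were lower and 1.15% higher.

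Over whole libraries, microRNA-processing genes and mRNA particle partners stayed within 2-fold. Of all genes, 10.4% were lower and 15% higher by 2-fold at E37 than at E24. For lists of 6 to 10 measured genes, counts of 0 or 1 are near these shares, so nothing is read from the counts. Of 10 measured genes of microRNA processing, 0 were lower and 0 higher at E37 than at E24, with a median log2 ratio of 0.24. DROSHA and DICER1, the nucleases that cut microRNA precursors, stood at 27.9 and 76.0 CPM at E37 against 25.1 and 79.4 CPM at E24. ZCCHC11 and ZCCHC6, the enzymes that add uridines to let-7 precursors bound by LIN28A, stood at 65.9 and 34.8 CPM at E37 against 80.7 and 22.1 CPM at E24. Of 10 partners of IGF2BP mRNA particles and other cold shock proteins, 0 passed 2-fold, but all 10 had ratios below 1 and the median was −0.52. YBX1, an mRNA-packaging protein, stood at 1478 CPM at E37 against 2579 CPM at E24, and YBX3 at 85.9 against 154.7 CPM. Inside the groups, YBX3 was lower by 2-fold or more in WT1 barcodes and in those with none of the 5 markers. Of all genes there, 5.38% and 12.8% were lower by 2-fold. PABPC1, which binds poly(A) tails, was lower in ACTA2 barcodes (a log2 ratio of −1.61), where 16.1% of genes were. No microRNA-processing gene passed 2-fold in any of these groups, with 3 to 9 of the 10 measured. In the insulin-like growth factor list, IGF1 was the only 1 of 6 measured genes past 2-fold over whole libraries. It was 3.69-fold higher at E37 (3.25 to 4.19), at 13.9 CPM against 3.78 CPM at E24, and already stood at 12.8 CPM at E28. Within groups IGF1 was higher by 2-fold in PECAM1 and WT1 barcodes and in those with none of the markers, as were 4.15%, 13.1% and 13.5% of genes. INSR, of the same list, was higher in ACTA2 barcodes (a log2 ratio of 1.16), as were 8.01% of genes. AGO1, AGO4 and IGF2 were on these lists but not among the gene names.

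**Figure D5:**
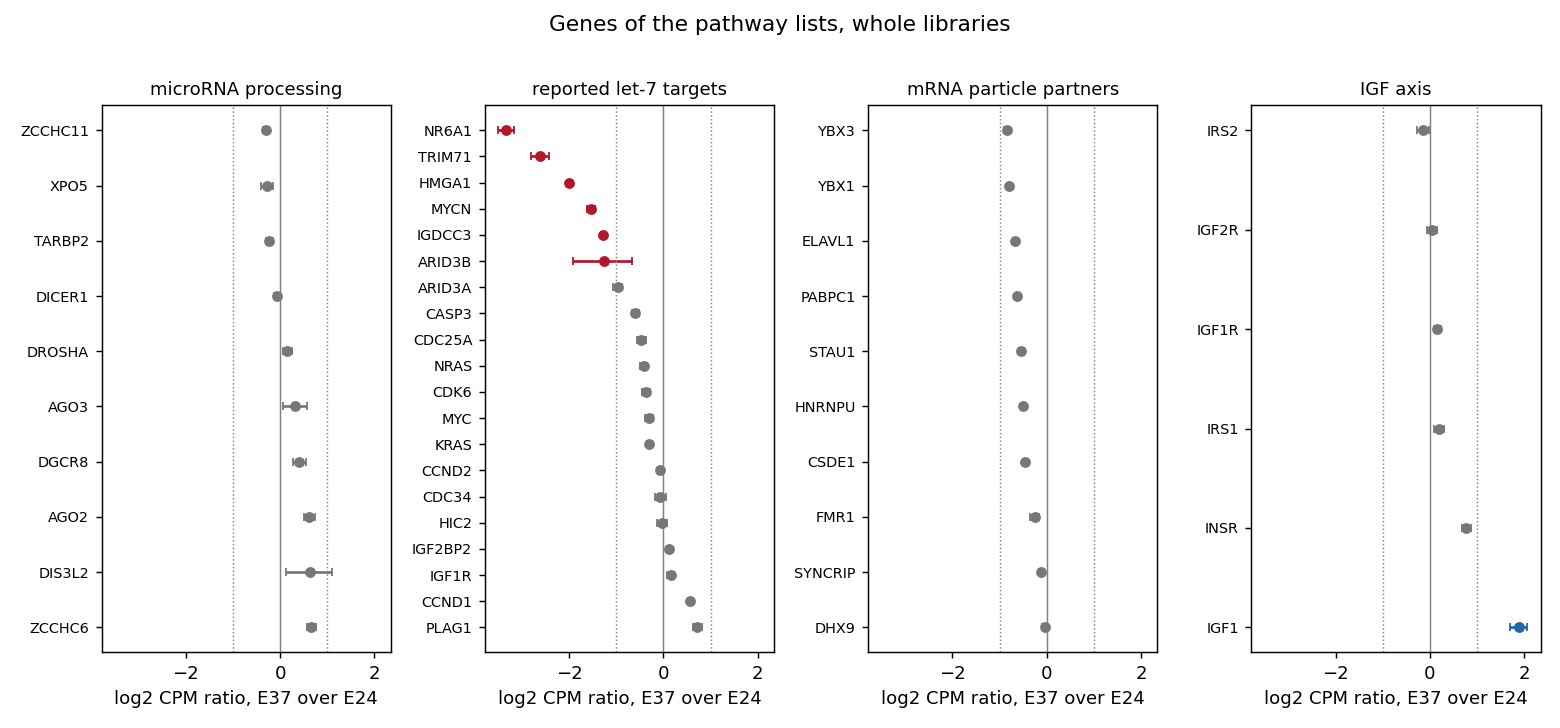
Log2 ratio of CPM over whole libraries, E37 over E24, for the genes of 4 lists: microRNA processing, reported let-7 targets, mRNA particle partners and the insulin-like growth factor axis. Bars are 95% counting intervals, dotted lines stand at 2-fold, and red and blue mark genes lower and higher by 2-fold or more. NR6A1 and TRIM71 lie lowest, and the only gene past 2-fold on the higher side is IGF1.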

How the data were processed

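The deposited files hold raw UMI counts per gene and barcode, with cell barcodes already called by the authors. Cell Ranger 2.1.0 is named, per the submitters' processing notes. Chemistry is named as v2 and as v3 in the labels' protocols. No source used here names a genome build or annotation, so coordinates and sequences are left out. A blank row held 0 UMIs. Barcodes under 500 genes (5 at E37) were left out, and doublets were kept: Scrublet called 0, 64, 7 and 5, too few for these library sizes. Counts were summed and scaled to CPM, with exact Poisson and conditional binomial 95% intervals. Clusters came from scanpy 1.11.5 (2000 variable genes, 30 components, 15 neighbours, Leiden resolution 1). Members, lists, markers and tests were chosen with earlier results of these data known. Named genes were the members, IGF2BP2, HMGA1, list genes past 2-fold and the 3 genes most alike to each member, and other list genes were added after their values were seen. The ratio script was tested on simulated data.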

Additional observations from a re-analysis of the deposited data

How the results depend on the processing

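No paired analysis was possible because each stage has 1 library. Of 313 alternatives, 263 left the value within its counting interval or its count within 1.5 times, 50 moved it and 0 reversed a called direction. Only ratios of 2-fold or more in the main setting could be scored as reversed, so counts, levels and smaller ratios could not. E37 against E24, the log2 ratio of LIN28B became −2.06 with median-of-ratios scaling, −2.05 with the mean over barcodes and −2.08 thinned, and that of IGF2BP1 −1.05, −1.02 and −1.07, past 2-fold, and −0.99 reweighted. IGF2BP3 became −0.75 with median-of-ratios scaling and −0.57 thinned. Median-of-ratios scaling shifts all genes by −0.13 (E37 against E24) and −0.23 (E28 against E24). For E31 against E28, thinning gave LIN28B 0.11, IGF2BP1 0.0303 and HMGA2 −0.65, median-of-ratios scaling gave IGF2BP1 0.0445 and IGF2BP3 0.19, and the mean over barcodes gave IGF2BP1 0.0410, so the sign of IGF2BP1 there changed with the setting. The cause of these shifts was not tested. The marker groups in which a gene was lower became 2 for LIN28B at 4-fold, 3 thinned and 2 at 1.5-fold for IGF2BP1, 3 at 1.5-fold for IGF2BP3 and 1 thinned for HMGA2. At 4-fold 2 let-7 targets were lower, and at 1.5-fold 4 particle partners. Genes lower at E31 than at E28 numbered 394, 670 with at least 20 UMIs and 1670 with no minimum. At a Leiden resolution of 2 the highest cluster held 469 CPM of LIN28A and 329 CPM of IGF2BP1 at E24 and 28.9 CPM of HMGA2 at E37. Within groups, LIN28A and LIN28B stayed lower by 2-fold in 29 of 29 alternatives each, and HMGA2 was below 0 in 6 of 29. The PAX8 group could not be compared under 3 marker definitions, with 44, 27 and 39 barcodes at E37. Depth limits HMGA2 within groups and LIN28A at E37, where single groups rest on 0 to 51 UMIs.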
